A study of Mus musculus with 31 samples.

Results

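A set of 10 genes of the cell's response to low oxygen was followed in the E13.5 mouse eye: Pfkfb3, Ak4, Vegfa, Slc2a1, Pdk1, Ldha, Bnip3, Egln3, Pgk1 and Ankrd37, out of 34832 gene names on the array, carried by 18 probes. Pfkfb3 and Ak4 were selected on their measured signal, higher in Ftx KO than in WT male eyes of these same samples, and the other 8 were added as known targets of the hypoxia-inducible factors, so the question was whether those 8 moved with them and whether all 10 moved in females. The eyes came from embryos at embryonic day 13.5 in 4 groups, with 3 WT females (eyes 1, 2 and 4), 3 WT males, 3 Ftx KO males, which lack the only Ftx copy on their single X, and 11 Ftx KO females, which lack Ftx on both X chromosomes. Ftx is a long non-coding RNA gene next to Xist, and its targeting also abolished the microRNAs encoded in an Ftx intron. The Ftx-deficient mice were kept on a pure C57BL/6N background, all eyes were of normal outer appearance, and the pigmented epithelium had been removed by surgery from every eye. RNA of each eye was hybridised to 1-colour (Cy3) Agilent arrays, of which 2 an eye were analysed here for the Ftx KO females and 1 an eye for the other groups.

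In normal oxygen, prolyl hydroxylases mark the hypoxia-inducible factors HIF1A and EPAS1 for destruction through the VHL ligase. In low oxygen the factors persist, pair with ARNT and bind DNA at the core letters ACGTG or GCGTG near their targets, which include glucose transporters, glycolytic enzymes, angiogenic signals and the hydroxylase EGLN3 itself. Growing neural retina is known to lean on glycolysis and on VEGFA made before and during the growth of the vessels inside the eye.

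The start sites of the members that the results turn on are shown first, as the 250 bases upstream of the first RefSeq start site of each gene (GRCm38.p6), in lower case with every ACGTG or GCGTG on either strand in capitals. Matches on opposite strands overlap where CACGTG occurs. The windows are chr2:11553930-11554179 (minus strand) for Pfkfb3, chr4:101419039-101419288 (plus) for Ak4, chr7:138909507-138909756 (minus) for Bnip3, chr12:54203875-54204124 (minus) for Egln3, chrX:106186850-106187099 (plus) for Pgk1 and chr7:46845554-46845803 (plus) for Ldha.
Pfkfb3: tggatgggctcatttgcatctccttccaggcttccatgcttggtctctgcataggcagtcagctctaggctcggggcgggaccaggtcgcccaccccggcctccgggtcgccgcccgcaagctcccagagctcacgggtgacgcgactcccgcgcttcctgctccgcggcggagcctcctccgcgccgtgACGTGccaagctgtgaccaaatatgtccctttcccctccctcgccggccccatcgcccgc
Ak4: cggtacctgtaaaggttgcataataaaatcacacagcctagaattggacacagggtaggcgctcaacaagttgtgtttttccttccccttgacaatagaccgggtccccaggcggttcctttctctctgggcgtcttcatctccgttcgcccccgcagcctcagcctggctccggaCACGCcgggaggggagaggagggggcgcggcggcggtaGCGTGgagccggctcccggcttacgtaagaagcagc
Bnip3: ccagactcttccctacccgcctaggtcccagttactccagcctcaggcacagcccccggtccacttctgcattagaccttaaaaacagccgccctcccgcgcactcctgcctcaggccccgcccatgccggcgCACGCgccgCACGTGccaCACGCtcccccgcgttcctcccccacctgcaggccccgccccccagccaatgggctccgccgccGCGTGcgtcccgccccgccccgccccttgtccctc
Egln3: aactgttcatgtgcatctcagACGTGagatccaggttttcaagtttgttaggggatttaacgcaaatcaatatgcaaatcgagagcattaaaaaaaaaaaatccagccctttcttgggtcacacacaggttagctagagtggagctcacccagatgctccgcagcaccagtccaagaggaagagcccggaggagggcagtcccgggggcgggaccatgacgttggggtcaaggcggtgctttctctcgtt
Pgk1: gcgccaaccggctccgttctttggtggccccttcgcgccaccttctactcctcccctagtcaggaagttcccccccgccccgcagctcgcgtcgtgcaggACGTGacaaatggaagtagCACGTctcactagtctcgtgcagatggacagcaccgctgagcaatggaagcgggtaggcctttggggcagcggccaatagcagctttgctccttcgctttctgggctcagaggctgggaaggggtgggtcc
Ldha: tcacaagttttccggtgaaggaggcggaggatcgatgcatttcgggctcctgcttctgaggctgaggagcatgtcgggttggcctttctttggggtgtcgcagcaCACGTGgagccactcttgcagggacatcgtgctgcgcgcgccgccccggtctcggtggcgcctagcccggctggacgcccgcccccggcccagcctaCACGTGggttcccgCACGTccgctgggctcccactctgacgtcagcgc
All 10 members had a match in at least 1 of their 17 RefSeq windows, 15 of the 17 windows held a match and 11 held at least 2 matches. The windows of a gene can overlap, as those of Ak4 do, and are then not separate. Of all 32807 windows of this length, 38.58% held a match and 16.73% held at least 2, and of all genes 41.53% had a match in at least 1 window. Most members were listed because they are known targets, so these shares are a description only. Ldha and Bnip3 each carried 5 matches, Ak4 and Pgk1 carried 2, and Pfkfb3 and Egln3 carried 1 in the windows printed. The first window of Vegfa and the second of Pdk1 held none. A match is a run of letters, not a bound site, and binding was not measured in these eyes.

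The probes were read as normalized intensity on a linear scale, here called signal, and each gene was followed by its brightest probe over all 20 eyes, the lead probe. Fold changes are differences of mean log2 signal from a limma fit over all 20 eyes, with Benjamini-Hochberg adjustment over the 14052 probes whose mean signal in WT females was above 500, and a probe was called when its adjusted p was under 0.05. A tested lead probe was available for 9 members. Egln3 had none, since its mean in WT females was 93.2, and its values come from a fit over all probes. All 18 probes matched their gene by RefSeq accession. The single Pgk1 probe was placed by the files on chromosome 3 (mm9, 57906830 to 57906894), although Pgk1 is X-linked, and RNA of related copies cannot be told apart by it.

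The arrays were checked against the labelled tissue, genotype and sex. Probes for lens crystallins and for the retinal progenitor gene Rax were bright in every group. The Ftx probe was well above background on 3 of 3 arrays of each WT group, on 0 of 3 Ftx KO male arrays and on 9 of 22 Ftx KO female arrays. It measured 101 ± 44.9 (mean signal ± SD, n = 3) in WT females and 106 ± 4.65 (SD, n = 3) in WT males, against 16.5 ± 2.94 (SD, n = 3) in Ftx KO males and 21.7 ± 11 (SD, n = 11) in Ftx KO females. The Y-linked gene Eif2s3y was well above background on 3 of 3 arrays of each male group, on 0 of 3 WT female arrays and on 1 of 22 Ftx KO female arrays. Median spot intensity was 46.6 to 67.4 in WT females, 47.0 to 61.6 in WT males, 34.8 to 39.7 in Ftx KO males and 34.2 to 74.99 in Ftx KO females before normalization. The arrays lay on 4 slides. All WT eyes and Ftx KO male eye 1 shared slide 1, Ftx KO male eyes 2 and 3 and Ftx KO female eyes 1 to 3 shared slide 2, slide 3 held Ftx KO female eyes 4 to 7 and slide 4 held eyes 8 to 11. In females, therefore, genotype and slide cannot be told apart.

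In Ftx KO females 3 of the 9 members tested, Pfkfb3, Ak4 and Pgk1, were higher than in WT females and 0 were lower (limma), where 16.8% of all tested probes were called higher and 18.3% lower. With the deposited intensities taken without normalization, where the median over all probes was 0.25 (log2), the same 3 members were called, and the calls over all probes split into 2611 higher and 191 lower. Over so few members the share called is a description, and nothing particular to them is read from it. The largest of the 3 rises was that of Ak4. The median log2 fold change of the 9 members was 0.22, beside a median of -0.01 over all tested probes. Of the 9 members 7 had a value above 0, as had 47.7% of all tested probes. At an unadjusted limma p under 0.05, Slc2a1 joined the 3 called members and 0 were lower, beside 21.6% of all tested probes higher and 23.3% lower.

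**Figure D1:**
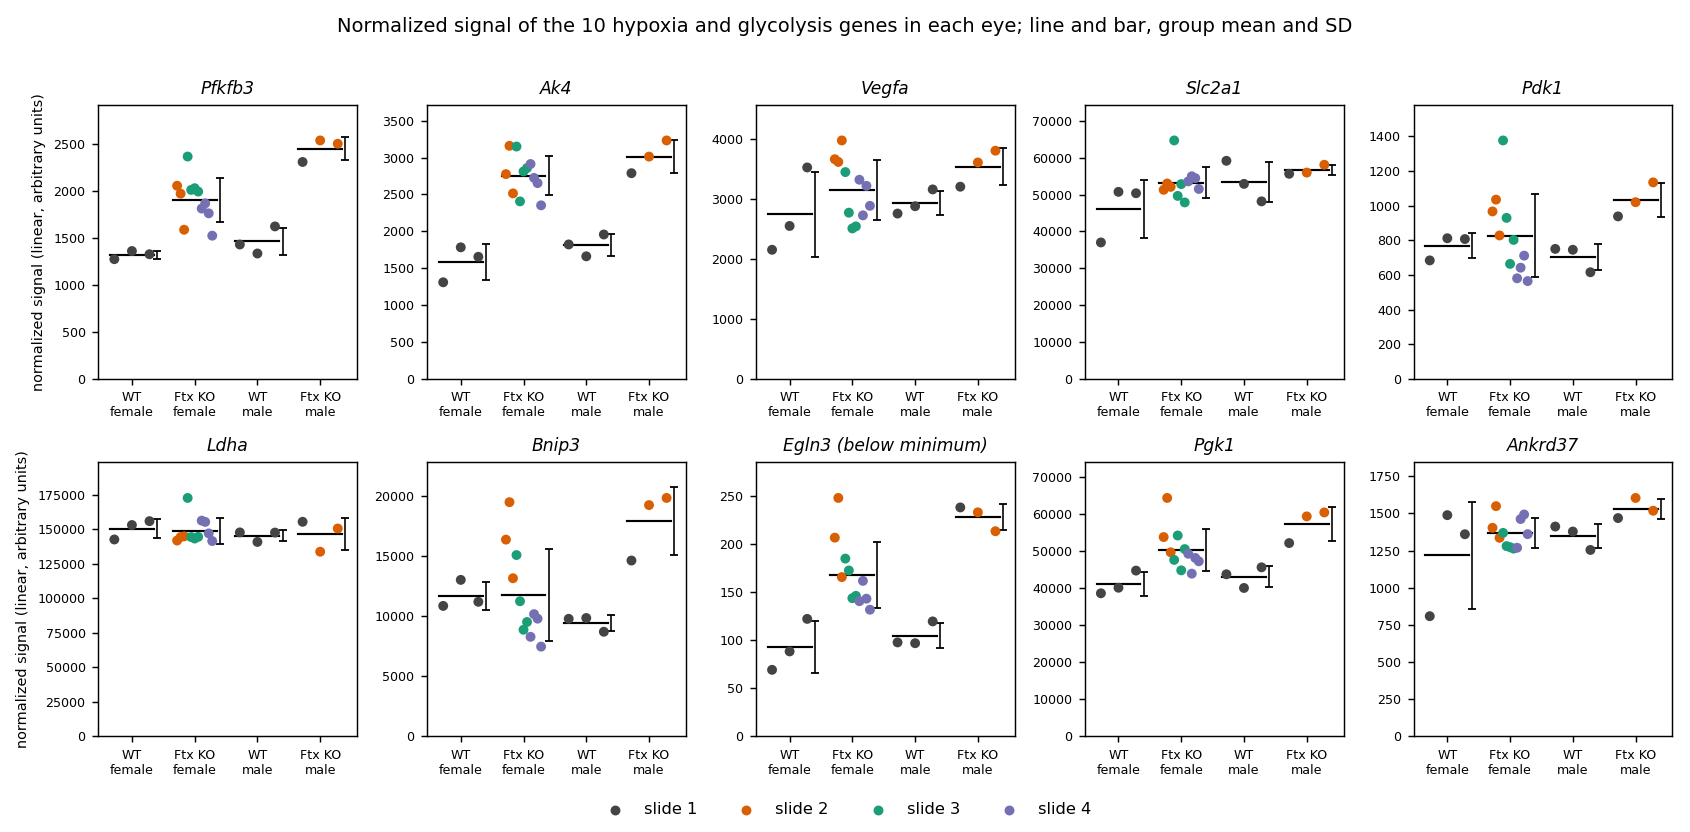
Normalized signal (y axis, linear, from 0) of each member's lead probe in every eye of the 4 groups (x axis), coloured by slide, with the group mean as a line and 1 SD as the bar beside it. The Ftx KO female eyes lay above all WT female eyes for Pfkfb3, Ak4 and Egln3, and Ldha was flat.

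Pfkfb3 makes fructose-2,6-bisphosphate, the strongest activator of the committed step of glycolysis. Its signal was 1276, 1363 and 1329 in WT female eyes 1, 2 and 4, and in the 11 Ftx KO female eyes the lowest was 1526, the median 1975 and the highest 2371. Every Ftx KO female eye thus lay above every WT female eye, which held for 10.1% of all tested probes. The log2 fold change was 0.52 (SE 0.098, 1.44-fold), with a limma adjusted p of 0.00066. Against the WT females, all on slide 1, the Ftx KO females of slide 2 differed by 0.49, those of slide 3 by 0.67 and those of slide 4 by 0.40 (log2). None of these differences lies within a slide, and with the slide as a block the value was 0.37 and no longer called (adjusted p = 0.32). A second Pfkfb3 probe, at a mean signal of only 45.1, gave -0.09 (SE 0.26) in females and 0.53 in males.

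Ak4 encodes an adenylate kinase of the mitochondrial matrix. Its signal was 1308, 1782 and 1654 in WT female eyes 1, 2 and 4, and in Ftx KO female eyes the lowest was 2352, the median 2775 and the highest 3159. The groups did not overlap. The log2 fold change was 0.81 (SE 0.095, 1.75-fold, limma adjusted p = 2.9e-05). The Ftx KO females of slides 2, 3 and 4 differed from the WT females of slide 1 by 0.84, 0.83 and 0.76, and with the slide as a block the value was 0.68 and not called (adjusted p = 0.14). A second and much dimmer Ak4 probe, with a mean signal of 66.3, was higher as well (log2 fold change 1.06, SE 0.29, adjusted p = 0.017 in the fit over all probes).

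Pgk1 encodes the glycolytic enzyme that makes the first ATP of the pathway. Its signal was 38570, 40064 and 44690 in WT female eyes 1, 2 and 4, and in Ftx KO female eyes the lowest was 43867, the median 49234 and the highest 64286. The ranges met at their edge, and 11 of 11 Ftx KO female eyes lay above the WT female mean. The log2 fold change was 0.29 (SE 0.088, 1.22-fold, limma adjusted p = 0.017). This call was lost without WT female eye 1 (adjusted p = 0.11) or without WT female eye 2 (adjusted p = 0.073). The paper, in contrast, names Pgk1 as not upregulated in the mutant females. By RNA-FISH it saw little Pgk1 RNA made from the inactive X. The probe here is placed on chromosome 3, so its rise cannot be assigned to the X-linked gene.

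Egln3 encodes a prolyl hydroxylase that is itself a classic target of the factors it marks. Its signal was low in WT female eyes 1, 2 and 4, at 69.1, 88.3 and 122, and in Ftx KO female eyes the lowest was 132, the median 162 and the highest 248. No Ftx KO female eye fell within the WT female range. In the fit over all probes its log2 fold change was 0.86 (SE 0.18, 1.82-fold, adjusted p = 0.0031). A second Egln3 probe, with a mean signal of 98.3, did not share this, with a log2 fold change of 0.01 (SE 0.19).

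The glucose transporter gene Slc2a1 had a signal of 37026, 50765 and 50388 in WT female eyes 1, 2 and 4 and of 47890 to 64722 in Ftx KO female eyes (median 52867). WT female eye 1 stood below all others and the groups overlapped. The log2 fold change was 0.22 (SE 0.088), with an adjusted p of 0.057 that missed the threshold. It passed without WT female eye 2 (0.30, adjusted p = 0.038), without WT female eye 4 (0.29, adjusted p = 0.041) or without Ftx KO female eye 7 (0.24, adjusted p = 0.045), and was 0.07 without WT female eye 1.

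Vegfa, the main angiogenic ligand, and Ankrd37, a small ankyrin-repeat protein gene, overlapped between the groups. Vegfa had a log2 fold change of 0.22 (SE 0.14, adjusted p = 0.24) by its lead probe, with WT female eyes at 2152, 2550 and 3525. Without WT female eye 4 it was 0.41 (adjusted p = 0.044). Its second probe, dimmer at a mean signal of 467, lay in the opposite direction at -0.44 (SE 0.20, adjusted p = 0.092). Ankrd37 had a log2 fold change of 0.21 (SE 0.12, adjusted p = 0.17) and WT female eyes at 808, 1488 and 1360. Without WT female eye 1 its value was -0.06, and without WT female eye 2 it was 0.38 (adjusted p = 0.032).

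Ldha, which turns pyruvate into lactate, was flat by its very bright lead probe, at 142600 to 155895 in WT female eyes and 141493 to 172700 in Ftx KO female eyes (log2 fold change -0.02, SE 0.059, 95% interval -0.14 to 0.10). No array carried the saturation flag on this probe. The other Ldha probes had log2 fold changes of 0.09 (SE 0.11) and -0.27 (SE 0.13, adjusted p = 0.10). The 3 probes of this gene therefore did not give a common value, in females or in males.

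**Figure D2:**
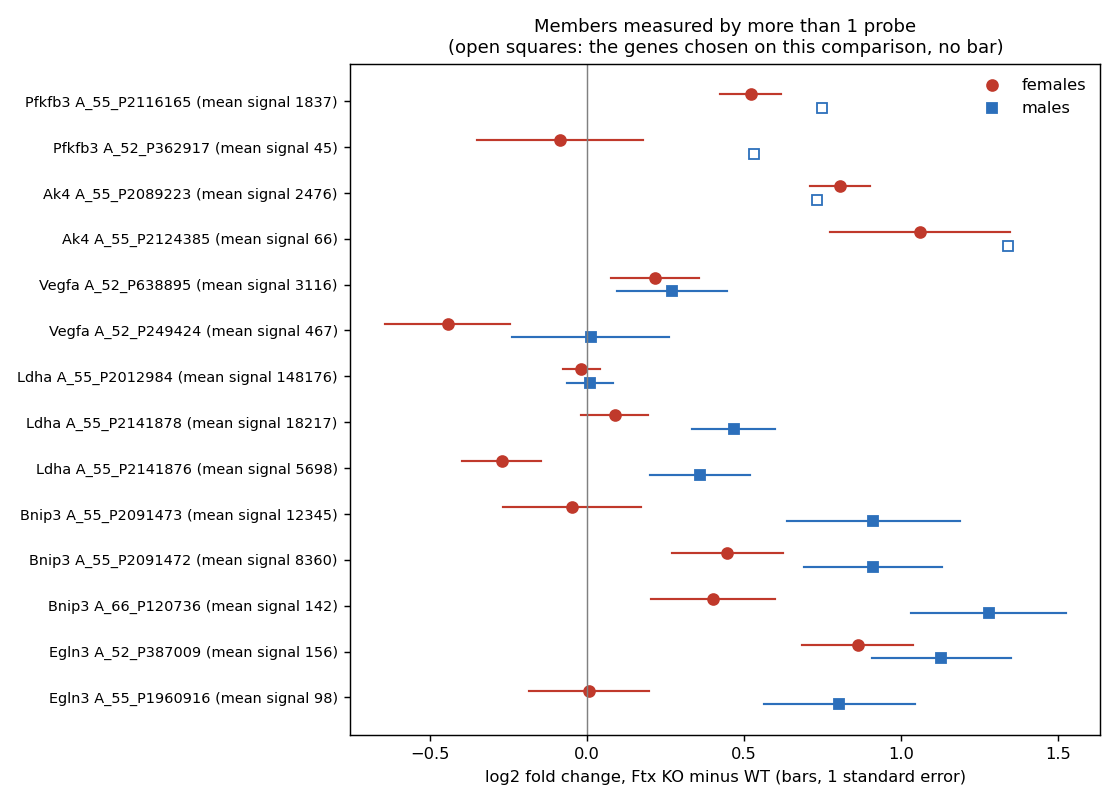
Log2 fold change, Ftx KO minus WT (x axis), for every probe of the members with more than 1 probe (y axis, with the mean signal over 20 eyes), in females (circles) and males (squares), with bars of 1 standard error. The 3 Ldha and the 3 Bnip3 probes differed in females, while all 3 Bnip3 probes were between 0.91 and 1.28 in males.

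Bnip3, which encodes a mitophagy receptor of the outer mitochondrial membrane, and Pdk1, the kinase that inhibits pyruvate dehydrogenase in the mitochondria, varied most among Ftx KO female eyes. Bnip3 had a signal of 10869, 13039 and 11211 in WT female eyes 1, 2 and 4 and ran from 7475 to 19517 in Ftx KO female eyes (median 10181), with a log2 fold change of -0.05 (SE 0.22, adjusted p = 0.88). Its second probe gave 0.45 (SE 0.18, adjusted p = 0.055). Pdk1 had a signal of 684, 812 and 807 in WT female eyes 1, 2 and 4 and ran from 564 to 1377 in Ftx KO female eyes (median 802), with a log2 fold change of 0.06 (SE 0.20, adjusted p = 0.83). In both genes the spread of Ftx KO female eyes reached well beyond the WT range on either side.

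That spread followed the slides in part. The 3 Ftx KO female eyes of slide 2 had a Bnip3 signal of 13175 to 19517, the 4 of slide 3 of 8881 to 15108 and the 4 of slide 4 of 7475 to 10181. Against WT females this was a mean log2 difference of 0.47 on slide 2, -0.09 on slide 3 and -0.40 on slide 4. The other Bnip3 probes did not turn below WT, with 0.65, 0.59 and 0.15 for the second and 0.72, 0.44 and 0.13 for the third in the same order of slides, so the sign rests on the probe. Pdk1, with a single probe, gave 0.30, 0.25 and -0.30 in the same order, and Egln3 gave 1.17, 0.83 and 0.67. Of the 10 members 8 had a higher mean on slide 2 than on slide 4, and of the 9 tested 7 had, beside 52.1% of all tested probes.

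**Figure D3:**
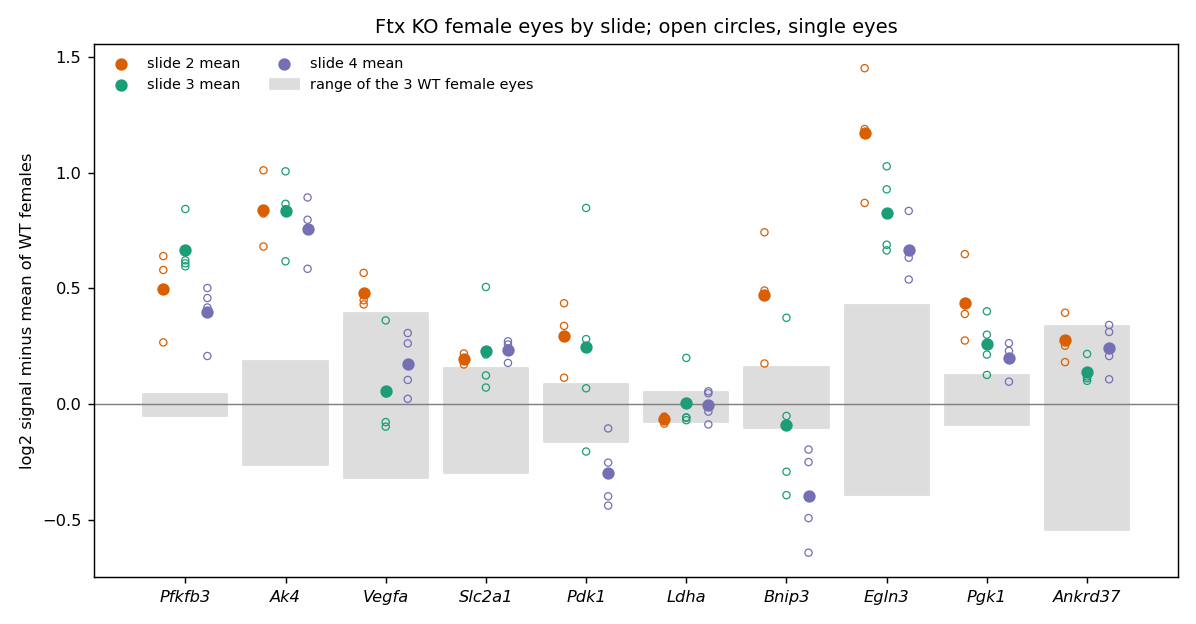
Log2 signal of Ftx KO female eyes minus the WT female mean (y axis) for each member's lead probe (x axis), with open circles for single eyes, filled circles for the mean of a slide and grey for the range of the 3 WT female eyes. Pfkfb3, Ak4 and Egln3 lay above the grey band on slides 2, 3 and 4, while the means of Bnip3 and Pdk1 went from above 0 on slide 2 to below 0 on slide 4.

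With only the slide 2 eyes as Ftx KO females, 5 of the 9 members were called higher, Bnip3 (0.47, adjusted p = 0.031) and Vegfa (0.48, adjusted p = 0.026) besides the first 3, and 0 lower, where 17.2% of all tested probes were called higher and 18% lower. The second Vegfa probe gave -0.03 there. With only the slide 4 eyes, 2 were called higher and Bnip3 was called lower by its lead probe (-0.40, adjusted p = 0.036) but not by the other probes, which lay above WT, beside 14.2% of all tested probes called higher and 14.8% lower. These splits were chosen after seeing the data. Different eyes lay on each slide, so eye and slide cannot be told apart. With the slide as a block, a fit that links WT and Ftx KO females only through male eyes, 0 members were called, Pgk1 being at 0.24 (adjusted p = 0.48). That fit called 1 probe higher and 10 lower of all probes tested. With the slide as a random block Pfkfb3 and Ak4 were called and Pgk1 was not (0.26, adjusted p = 0.11).

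In males the values of Pfkfb3 and Ak4 chose the genes and are given without a test. Pfkfb3 had a signal of 1432, 1336 and 1625 in WT male eyes 1, 2 and 3 and of 2313, 2542 and 2507 in Ftx KO male eyes 1, 2 and 3, a log2 fold change of 0.75. Ak4 had 1822, 1661 and 1956 in WT males and 2788, 3013 and 3232 in Ftx KO males, a log2 fold change of 0.73. On slide 1, which holds all WT males and Ftx KO male eye 1, that eye was higher by 0.66 for Pfkfb3 and by 0.62 for Ak4.

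Of the other 8 members, 7 had a tested lead probe, and 0 of these 7 were called higher or lower in Ftx KO males by limma, where 0.0142% of all tested probes were called higher and 0.00712% lower. The 2 probes called higher were the lead probes of Pfkfb3 and Ak4, the genes chosen on this contrast. All 7 had a value above 0, as had 49.7% of all tested probes, with a median log2 fold change of 0.27 beside -0.001 over all tested probes. At an unadjusted p under 0.05, 3 of the 7, Pdk1, Bnip3 and Pgk1, were higher and 0 were lower, beside 6.51% and 5.27% of all tested probes. The same 3 passed when a fold above 1.2 was asked for as well, and 0 fell below a fold of 0.8, beside 3.57% and 2.07% of all tested probes. Without WT male eye 3, 192 probes were called higher and 177 lower over all probes, and 0 of the 7 members. In 5 of the 7, Vegfa, Pdk1, Bnip3, Pgk1 and Ankrd37, every Ftx KO male eye lay above every WT male eye, which held for 11.2% of all tested probes. The methods' t-test also called 0 after adjustment.

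**Figure D4:**
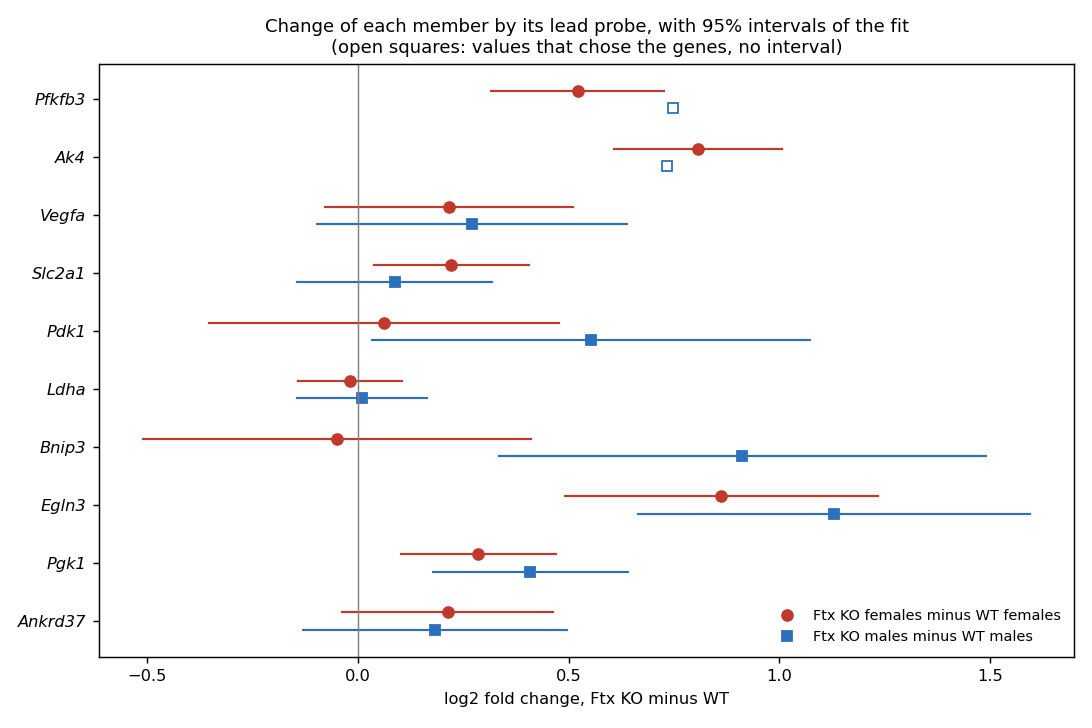
Log2 fold change, Ftx KO minus WT (x axis), of each member's lead probe (y axis) in females (circles) and males (squares), with 95% intervals of the limma fit. Bnip3, Egln3, Pdk1 and Pgk1 had intervals above 0 in males, and Pfkfb3, Ak4, Slc2a1, Egln3 and Pgk1 in females, before adjustment for the number of probes.

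Bnip3 had the largest value among the 7. Its signal was 9793, 9859 and 8715 in WT male eyes 1, 2 and 3 and 14652, 19273 and 19868 in Ftx KO male eyes 1, 2 and 3. The lowest Ftx KO male eye was the one on the slide of the WT eyes, and it too lay above all of them. The log2 fold change was 0.91 (SE 0.28, 1.88-fold), with an unadjusted p of 0.0037 and an adjusted p of 0.25 from limma. The second probe gave 0.91 (SE 0.22, adjusted p = 0.18) and the third, with a mean signal of 142, gave 1.28 (SE 0.25, adjusted p = 0.051 in the fit over all probes).

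Pdk1 had a signal of 750, 745 and 615 in WT male eyes 1, 2 and 3 and of 938, 1020 and 1134 in Ftx KO male eyes 1, 2 and 3. The log2 fold change was 0.55 (SE 0.25, unadjusted limma p = 0.038, adjusted p = 0.39). Pgk1 had 43691, 40007 and 45574 in WT males and 52115, 59311 and 60376 in Ftx KO males. Its log2 fold change was 0.41 (SE 0.11, unadjusted limma p = 0.0015, adjusted p = 0.22), by the probe placed on chromosome 3. In both genes every Ftx KO male eye lay above every WT male eye.

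Egln3 had a signal of 97.7, 96.9 and 120 in WT male eyes 1, 2 and 3 and of 238, 233 and 213 in Ftx KO male eyes 1, 2 and 3. It had the largest male value of all 10 lead probes, a log2 fold change of 1.13 (SE 0.22, 2.19-fold), and missed the threshold with an adjusted p of 0.055 in the fit over all probes. Its second probe gave 0.80 (SE 0.24, adjusted p = 0.19).

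The remaining members had smaller values in males. Vegfa had a log2 fold change of 0.27 (SE 0.18) and Ankrd37 of 0.18 (SE 0.15), with the lowest Ftx KO male eye just above the highest WT male eye in each (3204 against 3159 and 1468 against 1412). Slc2a1 had 0.09 (SE 0.11, 95% interval -0.14 to 0.32). Ldha had 0.01 by its lead probe (SE 0.073), while its second probe gave 0.47 (SE 0.13, unadjusted limma p = 0.0023, adjusted p = 0.23) and the third gave 0.36 (SE 0.16, adjusted p = 0.38), each with all Ftx KO male eyes above all WT male eyes.

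Within slide 1, Ftx KO male eye 1 lay above every WT male eye in 7 of the 8 other members, the exception being Slc2a1 (55667 against a highest WT male of 59194). Among the 7 tested it did so in 6, beside 21.9% of all tested probes. Its log2 difference from the WT male mean was 0.63 for Bnip3, 0.42 for Pdk1, 0.28 for Pgk1 and 1.19 for Egln3. The median spot intensity before normalization was lower on all Ftx KO male arrays than on any WT male array, and the part of this in the result was not tested.

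In the same male eyes haemoglobin probes had high values, though no erythroid marker was called. The summed signal of 10 erythroid marker genes was 206404, 252272 and 261485 in WT male eyes 1, 2 and 3 and 304797, 653331 and 441731 in Ftx KO male eyes 1, 2 and 3. All 6 tested markers had an unadjusted limma p under 0.05 in the higher direction and 0 an adjusted p under 0.05, beside 6.51% of all tested probes higher at the unadjusted threshold, with a median log2 fold change of 0.92. The sum is carried by the haemoglobin probes Hbb-y, Hba-a1 and Hbb-b1, with means of 101760, 66907 and 62506 in WT males and 186278, 135244 and 127002 in Ftx KO males. The erythroid regulator Gata1, too dim to be tested, had the opposite sign, with a log2 fold change of -0.98 (SE 0.55) and means of 74.1 in WT and 41.5 in Ftx KO males. All 6 tested markers were well above background on 31 of 31 arrays. In Ftx KO females 2 of the 6 were called higher, beside 16.8% of all tested probes, with sums of 309021 to 382424 on slide 2, 226812 to 379434 on slide 3 and 211171 to 313728 on slide 4, against 232988 to 266219 in WT females. The part of blood RNA in the members' values was not tested, and in whole eyes more cells of a type and more RNA per cell cannot be told apart.

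In Ftx KO females 10 of 13 tested lens markers were lower, beside 18.3% of all tested probes (median log2 fold change -0.54), and 0 were in males. The summed mesenchyme markers ranged from 3936 to 5672 in WT females and from 5906 to 46128 in Ftx KO females, with 1 of 10 markers tested (Col1a2, called higher at 1.09, adjusted p = 0.047), and the pigment epithelium markers from 5176 to 7558 and from 3336 to 33975, with 1 of 3 tested called higher. Endothelial markers ranged from 3000 to 3885 and from 2406 to 6952. Of the retinal progenitor markers 2 of 10 rose, of the retinal neuron markers 2 of 8 rose and 3 fell, and of the macrophage markers 1 of 5 rose, beside 16.8% of all tested probes higher and 18.3% lower. In males 0 tested markers of these lists were called. The pigment epithelium sums were 8417 to 12868 in WT and 5079 to 7608 in Ftx KO males, with a median log2 fold change of -0.85. The retinal progenitor sums were 244224 to 274417 and 280179 to 326468. The sums of the other lists overlapped, the macrophage sums being 5868 to 6950 and 4803 to 6007. The part of all these markers in the members' values was not tested in either sex.

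The change in females was set against that in males by the interaction term of the fit. For the 7 other members tested, 0 differed between the sexes after adjustment (limma), as did 0% of all tested probes. Among the lead probes Bnip3 had the only unadjusted p under 0.05, with a female minus male difference of -0.96 (SE 0.35, p = 0.013, adjusted p = 0.24), beside 5.64% of all tested probes higher and 8.26% lower at that threshold, and 5.77% lower with the fold limit as well. The second Bnip3 probe gave -0.46 (unadjusted limma p = 0.12) and the third -0.88 (unadjusted limma p = 0.012 in the fit over all probes). For Egln3 the lead probe gave -0.27 and the second -0.80 (unadjusted limma p = 0.36 and 0.018 in that fit). The Ldha lead probe gave -0.03, while the second and the third gave -0.38 (unadjusted limma p = 0.037) and -0.63 (unadjusted limma p = 0.0057). The difference was -0.23 (SE 0.16) for Pfkfb3 and 0.07 (SE 0.15) for Ak4, values that rest in part on the contrast that chose them.

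Between the sexes of 1 genotype, 0 of the 7 were called in WT eyes by limma (0.0569% of all tested probes higher and 0.0142% lower in WT females than in WT males), with 0 at an unadjusted p under 0.05 beside 5.35% higher and 4.88% lower. Among the lead probes every WT female eye lay above every WT male eye for Bnip3 alone, as for 10.1% of all tested probes. The third Ldha probe showed this too. In Ftx KO eyes 0 of the 7 were called, beside 0.534% higher and 1.44% lower in females, and Bnip3 (-0.66, SE 0.22, adjusted p = 0.14) and Pgk1 (-0.19, SE 0.088, adjusted p = 0.28) had an unadjusted p under 0.05, beside 9.58% of all tested probes lower and 7.02% higher. Bnip3 also passed the fold limit, beside 4.15% of all tested probes. The third Ldha probe gave -0.44 (SE 0.13, limma adjusted p = 0.083). On slide 2, which holds Ftx KO eyes of both sexes, the log2 difference of females from males was -0.28 for Bnip3 and -0.11 for Pgk1. Egln3 had a female minus male difference of -0.47 in Ftx KO eyes (SE 0.18, adjusted p = 0.24 in the fit over all probes), and of -0.13 on slide 2.

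By the lead probes, the order of the group means on the log2 scale was the same for Vegfa, Egln3, Pgk1 and Ankrd37, with WT females lowest, then WT males, Ftx KO females and Ftx KO males. The share of all tested probes in this order was not counted, and all WT eyes lay on slide 1. The second probes of Vegfa and Egln3 did not keep this order, with WT females highest for Vegfa and WT males lowest for Egln3. For the lead probes of these genes neither sex difference passed the threshold, with limma adjusted p-values of 0.71 to 0.90 in WT and of 0.24 to 0.52 in Ftx KO eyes. Pfkfb3 and Ak4 were in this order too, but the place of Ftx KO males above WT males chose them. Their female minus male log2 differences were -0.14 and -0.21 in WT and -0.37 and -0.13 in Ftx KO eyes, and the latter rest on the male eyes that chose them. Pdk1 and Bnip3 instead had WT males lowest and Ftx KO males highest, with the female groups between them.

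Over the 11 Ftx KO female eyes the level of Pfkfb3 was set against each of the other 9 members. None of the 9 relations passed after adjustment (two-sided permutation test). Pdk1 had a Pearson r of 0.70 (permutation p = 0.015, adjusted p = 0.094) and a Spearman rho of 0.64 (permutation p = 0.041, adjusted p = 0.25). Without the 2 eyes farthest from the median Pfkfb3 level on the log2 scale, eyes 3 and 11, r was 0.82. Ak4 had r of 0.68 (permutation p = 0.021, adjusted p = 0.094) and rho of 0.50 (permutation p = 0.12, adjusted p = 0.37), and r fell to 0.39 without those eyes. Leaving out eyes far from the median narrows the range of Pfkfb3, so whether the relation rests on those eyes cannot be told. Vegfa and Ankrd37 had r of -0.10 and -0.05. With slide means taken out and permutation within slides, r was 0.80 for Bnip3, 0.78 for Egln3, 0.75 for Ak4, 0.64 for Pdk1, 0.61 for Ldha and 0.56 for Slc2a1, with adjusted p-values of 0.062 to 0.063. It was 0.51 for Ankrd37, 0.27 for Vegfa and 0.19 for Pgk1, with adjusted p-values of 0.28, 0.47 and 0.72.

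Over all 20 eyes, with group means taken out, the tested probes most like the Pfkfb3 lead probe were those of Kif22 (r = 0.83), the second probe of Bnip3 (0.80) and Kdm3a (0.78). Those most like Ak4 were Anp32a (0.84), Vps54 (0.81) and Serp2 (0.81). Pfkfb3 and Ak4 had r of 0.65 with each other on this measure, and the eyes share slides. The ranked values are the highest of many and were not tested.

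Of 30 other HIF target genes listed from general knowledge, 17 had a tested lead probe. In Ftx KO females 4 rose and 3 fell (limma, beside the 16.8% and 18.3% of all tested probes), and in Ftx KO males 0 passed, with 4 at an unadjusted p under 0.05, all higher, beside 6.51% of all tested probes. The median log2 fold change of the 17 was 0.04 in females and 0.22 in males. Kdm3a, a histone H3 lysine demethylase, rose in females from 4034 ± 178 (SD, n = 3) to 6142 ± 830 (SD, n = 11), a log2 fold change of 0.60 (SE 0.10, adjusted p = 0.00035), and had 0.54 in males (SE 0.13, adjusted p = 0.18). Gbe1, the glycogen branching enzyme, and Hilpda, a lipid droplet protein, rose by 0.25 (SE 0.076) and 0.19 (SE 0.058) in females, and had 0.18 and 0.24 in males. The 3 that fell in females were Ndrg1 (-0.38), the glycogen synthase Gys1 (-0.30) and the demethylase Kdm4b (-0.18), which had 0.09, 0.05 and 0.01 in males.

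**Figure D5:**
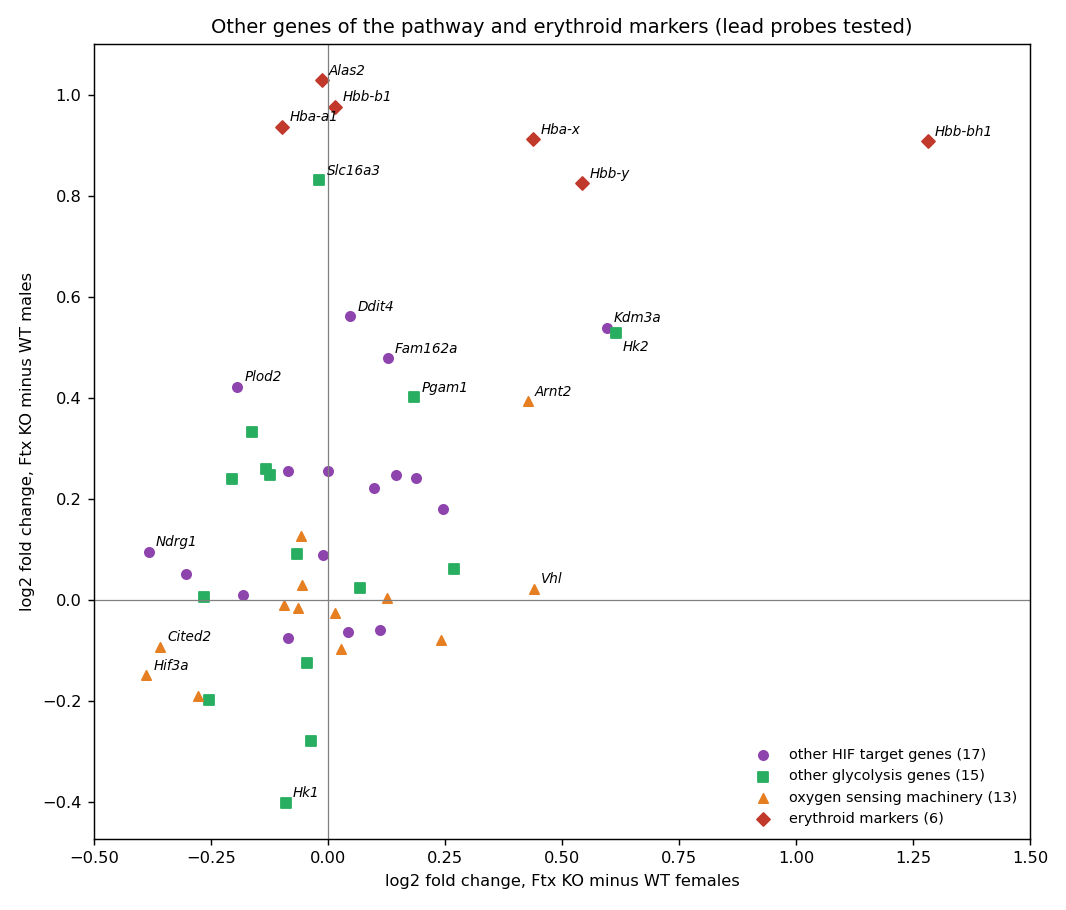
Log2 fold change, Ftx KO minus WT, in females (x axis) and males (y axis) of the tested lead probes of other HIF target genes (circles), other glycolysis genes (squares), oxygen sensing genes (triangles) and erythroid markers (diamonds). Kdm3a and Hk2 lay apart at 0.60 and 0.61 in females and 0.54 and 0.53 in males, while the erythroid markers lay between 0.83 and 1.03 in males.

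Of 20 other glycolysis genes 15 were tested, and only Hk2, the inducible hexokinase, rose in females while 0 fell, beside 16.8% and 18.3% of all tested probes. It went from 821 ± 107 (SD, n = 3) in WT females to 1262 ± 175 (SD, n = 11) without Ftx, a log2 fold change of 0.61 (SE 0.12, adjusted p = 0.0007), and it had 0.53 in males (SE 0.15, adjusted p = 0.23). The median log2 fold change of the 15 was -0.07 in females and 0.09 in males, where 0 passed and 5 had an unadjusted p under 0.05 in the higher direction, beside 6.51% of all tested probes. Slc16a3, the lactate exporter of glycolytic cells, had the largest male value of the other HIF target and glycolysis genes tested, 0.83 (SE 0.17, unadjusted limma p = 0.00013, adjusted p = 0.17), and -0.02 in females. It was named after its values were seen.

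All 13 genes of the oxygen sensing machinery were tested, and in females 4 rose and 2 fell, beside 16.8% and 18.3% of all tested probes. Vhl rose by 0.44 (SE 0.073, adjusted p = 0.00029), from 3518 ± 216 (SD, n = 3) to 4782 ± 398 (SD, n = 11), and had 0.02 in males. Arnt2 and Arnt, the partner subunits, rose by 0.43 and 0.24 in females. In males they had 0.39 (SE 0.16, limma adjusted p = 0.36) and -0.08. Hif3a and Epas1 had log2 fold changes of -0.39 and -0.28 in females and of -0.15 and -0.19 in males. Hif1a had 0.02 (SE 0.065) in females and -0.03 (SE 0.081) in males, each smaller than its standard error. In males 0 of the 13 passed.

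Among the 3 other adenylate kinases tested, Ak3 rose by 0.15 (SE 0.046, adjusted p = 0.021) and Ak1 had -0.19 (SE 0.066, adjusted p = 0.027) in females. These were small beside the 0.81 of Ak4. Of the 4 VEGF ligands and receptors tested besides Vegfa, Vegfc rose by 0.39 (SE 0.11, adjusted p = 0.0077) and Vegfb had -0.48 (SE 0.082, adjusted p = 0.00033) in females. None of the tested genes of either list passed in males.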

How the data were processed

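RNA of 20 E13.5 eyes was measured on 31 1-colour arrays. The authors deposited, per the file headers, the background-subtracted intensity of each spot from Agilent Feature Extraction 11.0.1.1, not normalized between arrays. A series table with the same intensity, rounded, served as an alternative. The files place the probes on mm9.

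Normalization followed the quantile-spline procedure named by the study, written out in R 4.3.3 for the 59305 probe spots (100 samples, 5 iterations). Spots flagged as non-uniform (120) or as population outliers (5639) were dropped and spots of a probe averaged. Each Ftx KO female eye entered once, as the log2 mean of its 2 arrays, which correlated at 0.978 to 0.994. The 14052 probes with a mean over 500 in WT females were fitted across the 20 eyes with limma 3.58.1 (trend on the mean). No label ties an eye to an embryo or litter, so p-values measure only the spread between these eyes, and the number of eyes sets the precision.

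The members and gene lists were chosen with earlier results of these data known. A gene was followed by its brightest probe. From each other list, up to 3 of the largest rises and 3 of the largest falls called in females were named, and for Pfkfb3 and Ak4 the 3 probes with a gene name most like them. Relations were tested by 100000 two-sided permutations. On simulated data where 200 of the 14052 probes moved by 1 (log2), 96% were recovered for females and 89.5% for males, and 10 and 7 unmoved probes were called. That size was larger than the change of every tested lead probe of a member, so recovery of smaller changes was not measured. Alternatives were other normalizations, filters, arrays and probe rules, blocks for slide and eye number, the methods' t-test on linear signal, their fold limits (1.2 and 0.8) with an unadjusted p, and each eye left out. Promoter sequences are from RefSeq (GRCm38.p6).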

Additional observations from a re-analysis of the deposited data

How the results depend on the processing

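The 3 members called higher in females (Pfkfb3, Ak4 and Pgk1) became 0 with the slide as a block, 5 with the Ftx KO females of slide 2 only, and, with an eye left out, 2 to 5 (2 without WT female eye 1, 5 without WT female eye 4). The 0 called lower became 1 with those of slide 4 only. With the fold limits and an unadjusted p, 3 other members were called in males, and 1 member, Bnip3, in the female minus male change and between Ftx KO sexes. The 0 called between Ftx KO sexes became 0 to 1 with an eye left out (Bnip3 without Ftx KO female eye 2). Those in males, between WT sexes and in the female minus male change remained 0 by adjusted p in every alternative run, and so did the relations with Pfkfb3. The female minus male change could not be fitted with only the groups compared or by the t-test. Calls between Ftx KO sexes over all probes went from 75 higher and 202 lower in females to 13 and 3 without Ftx KO male eye 2. They were 19 and 8 without Ftx KO male eye 3, and 10 and 0 with the slide as a block. Over all probes, calls in females went from 2362 higher and 2566 lower to 1 and 10 with the slide as a block, 1106 and 1371 with it as a random block, 4321 and 4483 with no filter on signal, where more probes were tested, 2412 and 2531 with slide 2 only, 1557 and 1587 without WT female eye 1, and 1845 and 1972 without WT female eye 4.

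Eye numbers are shared between groups but did not pair the eyes, as the deviations of same-numbered eyes from their group means correlated at -0.22 to 0.14. With the replicate block 6 members were called higher in females (Vegfa, Pdk1 and Bnip3 besides the 3), with Bnip3 at 0.47 and Ldha at 0.0088, and over all probes 1431 higher and 1813 lower.

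The log2 values that changed sign follow, and the cause was not tested. In females Ldha (-0.02) was 0.080 in the series table, 0.065 with the slide as a block, 0.012 with it as a random block and 0.0031 for slide 3 only, and -0.057 to 0.0071 with an eye left out. Bnip3 (-0.05) was 0.23 in the series table, 0.20 as the mean of its probes, 0.052 with the slide as a block, 0.0095 by the t-test's linear means and 0.47 for slide 2 only, and -0.13 to 0.031 with an eye left out. Vegfa was -0.11 as the mean of its probes and Pdk1 was -0.30 for slide 4 only. With an eye left out Pdk1 was -0.019 to 0.11 and Ankrd37 -0.059 to 0.38. In males Ldha (0.01) was -0.10 with the 75th percentile, -0.024 with normexp, -0.22 in the series table and -0.035 with Ftx KO males of slide 2 only, and -0.035 to 0.074 with an eye left out, and Slc2a1 was -0.078 in the series table.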
